A study of Mus musculus with 4 samples.

Results

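Neuropeptide genes were compared between islet-like clusters grown from cultured pancreatic cells and native mouse islets. Members were the non-control probes whose gene name in the scanner files was Npy, Vip, Tac1, Gal, Cck, Penk, Nts, Adcyap1, Grp or Calca. This gave 11 probes for 10 genes, Calca having 2, of 55681 probes on the array. The material came from male Swiss albino mice of 10 to 12 weeks, whose pancreata were digested with collagenase in groups of 2 to 4 animals. For the clusters, fibroblast-like cells that attached to plastic were passaged and then moved to serum-free medium with insulin, transferrin and selenium in low-adherence dishes. They received 0.3 mM taurine on day 3, then 100 mM nicotinamide, 3 mM taurine and the incretin GLP-1 on day 7, and were collected on day 10. The islets were rinsed from the same kind of culture. The labels disagree on their state: one field has them cultured for 48 h, another has them fresh. Each group had 2 arrays. No array held the attached cells before induction, so the difference between clusters and islets is the comparison that the design allows. The labels do not say whether arrays of a group came from separate animals, so p-values measure only the spread between arrays, which may be technical.

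Neuropeptides are made as larger precursors. These are cut at pairs of basic residues in secretory granules, often amidated, and released to act on G protein-coupled receptors. In the pancreas they are known from nerve fibres around islets and ducts and, for some, from endocrine cells: galanin and neuropeptide Y restrain insulin secretion, whereas VIP and PACAP (the product of Adcyap1) enhance it. CCK from the gut drives enzyme secretion by acinar cells and sensory nerves.

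Values are log2 of the processed spot signal minus the 75th percentile of the array, so 0 is the signal at that percentile. Values of different probes are not comparable as amounts. The summed levels of marker lists given below add such signals, so bright probes weigh most in them, and they describe only how a list differs between arrays. A spot counted as detected when the scanner software marked it as well above background. In every array 59.7% to 63.6% of spots were detected, and none was saturated. Over the genes tested, which are not independent replicates, the cluster pair correlated at a Pearson's r of 0.985 and the islet pair at 0.989. Pairs across groups gave 0.796 to 0.810.

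The probes are 60-base oligos. Those of Npy, Nts and Gal are shown, because they read the coding part of the message. In the Npy and Nts probes, capitals mark the codons of the cleavage site that follows the mature peptide (for Npy with the glycine used for amidation).
Npy probe: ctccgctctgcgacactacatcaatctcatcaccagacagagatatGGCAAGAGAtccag
Nts probe: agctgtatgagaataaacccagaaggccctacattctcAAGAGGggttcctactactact
Gal probe: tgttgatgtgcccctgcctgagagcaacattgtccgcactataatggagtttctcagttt
On the mm9 assembly the Npy probe spans chr6:49773743-49777505 on the plus strand. That is 3763 bases of genome for 60 bases of probe, so it crosses a splice junction. The Nts probe lies at chr10:101944967-101945026 and the Gal probe at chr19:3411143-3411202, both on the minus strand.

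Cck, Npy and Gal rose in clusters, and Penk did so on the 3 arrays that gave it a usable value. The calcitonin form of Calca was detected only in islets, Tac1 and Nts did not pass the test, and Vip, Adcyap1 and Grp were too dim to enter it. A gene entered the test when its probe was detected on both arrays of at least 1 group and had a value on all 4. Of the 10 members 6 entered, and 3 of them passed as higher and 1 as lower (limma, Benjamini-Hochberg adjusted p under 0.05). Over all 24596 genes tested, 27.1% passed as higher and 30.3% as lower, 57.5% in all. By probe, 4 of the 6 member probes tested passed, against 55.6% of 34974 probes tested. The median log2 difference was 2.98 over the 6 members and -0.14 over all genes. Without cluster replicate 2 the members' median was 1.64, with normexp 1.78, and over 9 members with no filter on dim probes 1.23. Tac1, Nts and Calca entered only through the group in which they were brighter, so these counts and medians do not describe the 10 genes as a whole. In RNA from whole tissue, fewer cells of a type and less RNA per cell cannot be told apart.

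**Figure D1:**
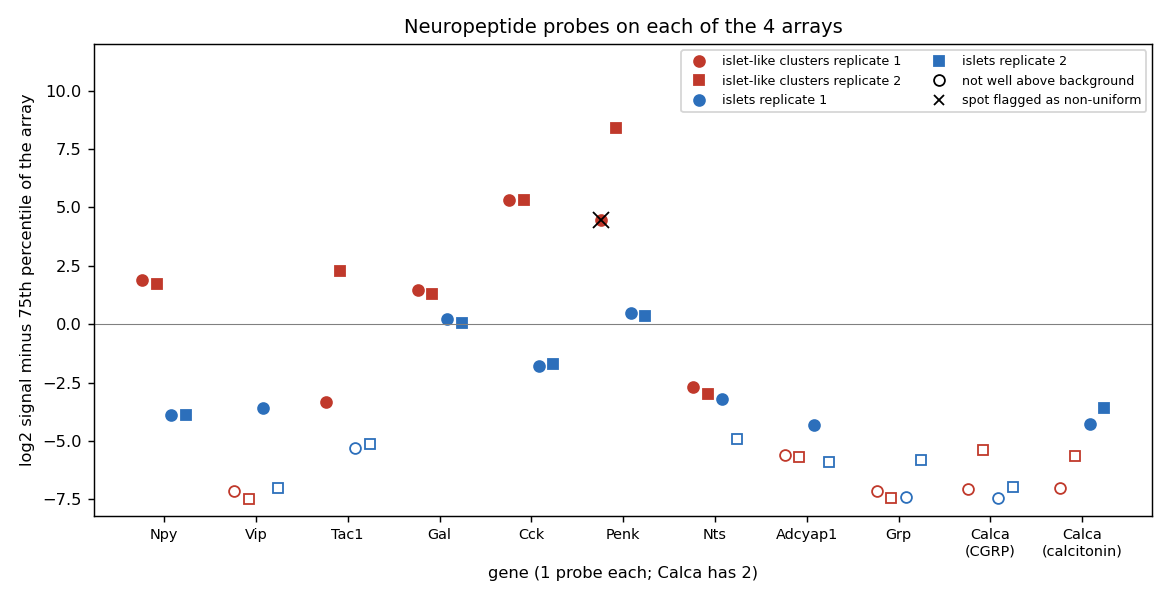
Each point is 1 probe on 1 array, in log2 signal minus the 75th percentile of that array. Circles are replicate 1 and squares replicate 2, in red for clusters and blue for islets, open points were not well above background, and the cross marks a spot flagged as non-uniform. The Cck, Npy, Gal and Penk points of the clusters lie above all islet points, while the Tac1 and Penk points of the 2 cluster arrays lie far apart.

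Cck encodes cholecystokinin, a gut hormone and brain transmitter. Its probe (mm9 chr9:121398943-121399002, minus strand) gave 5.33 and 5.30 for clusters against -1.80 and -1.72 for islets. Both cluster values lay about 7 units above both islet values, and the arrays within each group were close. The difference was 7.08 ± 0.13 (log2, SE), a 135-fold rise, with limma adjusted p = 9.13e-05. The means were 5.31 ± 0.02 in clusters and -1.76 ± 0.06 in islets (SD, n = 2 each).

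Npy encodes neuropeptide Y, a transmitter of sympathetic nerves. It read 1.89 and 1.73 in clusters against -3.91 and -3.89 in islets. The groups did not overlap, and all 4 spots were detected. The rise was 5.71 ± 0.14 (log2, SE), or 52.2-fold, with limma adjusted p = 9.6e-05. With normexp background correction, which lifts dim values, it was 3.93.

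Gal encodes galanin, a transmitter of pancreatic sympathetic nerves. It read 1.47 and 1.28 in clusters and 0.21 and 0.03 in islets. Like Cck and Npy it was detected on all 4 arrays, and the rise was smaller, 1.26 ± 0.16 (log2, SE) or 2.39-fold (limma adjusted p = 0.00384). Its call and direction held in all 17 alternatives, with differences from 1.09 to 1.49.

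Penk encodes proenkephalin, the precursor of the enkephalin opioid peptides. Its probe (mm9 chr4:4060724-4060783, minus strand) read 4.44 and 8.42 in clusters and 0.49 and 0.35 in islets. Both cluster values were above both islet values, but cluster replicate 1 minus replicate 2 was -3.98. The spot on cluster replicate 1 was flagged as non-uniform, so Penk dropped out of the test on 4 arrays. On the 3 remaining arrays, with 1 cluster array whose spread is taken to equal that of the islets, the difference was 8.00 ± 0.19 (log2, SE), or 256-fold (limma adjusted p = 0.000266). That fit was added after the data were seen. With the flagged spot kept the difference was 6.01 (adjusted p = 0.0241).

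Tac1 encodes the precursor of substance P and neurokinin A, peptides of sensory and enteric nerves. It read -3.32 and 2.27 in clusters, both detected, and -5.30 and -5.15 in islets, both not detected. Replicate 1 minus replicate 2 of the clusters was -5.59, the widest gap of any member. The difference between groups was 4.70 ± 1.92 (log2, SE), with a 95% interval from -0.49 to 9.89 and limma adjusted p = 0.0996, so it did not pass. Against the lowest detectable signal of the islet arrays, the cluster mean was at least 22.2-fold higher, cluster replicate 1 alone at least 3.20-fold and cluster replicate 2 alone at least 154-fold. Without cluster replicate 1 the difference was 7.50, and without cluster replicate 2 it was 1.91. Each rests on 1 cluster array, so neither fit takes in the gap between the cluster arrays. Over 16 alternatives the adjusted p of Tac1 ran from 0.00078 to 0.268.

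**Figure D2:**
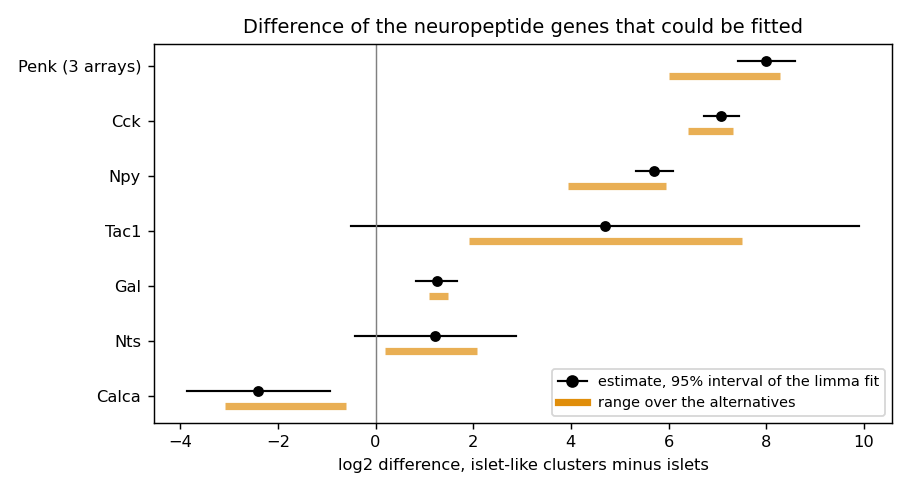
Black points are log2 differences, clusters minus islets, with the 95% interval of the limma fit, and orange bars are the range over the alternatives. Intervals of Cck (6.72 to 7.43), Npy (5.33 to 6.08), Penk (7.42 to 8.58) and Gal (0.83 to 1.68) lie above 0, that of Calca (-3.85 to -0.94), whose cluster signals were undetected, below 0, and those of Tac1 and Nts cross it.

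The Tac1 and Penk spots sit in a part of cluster replicate 1 that differed from the rest of that array. Of 34399 spots detected on both cluster arrays, 307 (0.892%) were over 4-fold lower on replicate 1 than on replicate 2, and 15 were over 4-fold higher. Among these 307 low spots 293 (95.4%) lay in rows 1 to 128 of 384, which hold 31.5% of the spots compared. That array had 510 spots flagged as non-uniform, of which 491 (96.3%) were in the same rows. Within 10 rows and columns of the Tac1 spot 11 of 174 neighbours (6.32%) were over 4-fold lower, and around the Penk spot 19 of 203 (9.36%). The drop at Tac1 was exceeded by 14 of the 34399 spots. Around the spot of the CGRP-form Calca probe 10 of 227 (4.41%) were low, which limits what its lack of signal on that array can show. Around the Cck spot 1 of 260 neighbours was low, and around the Npy, Gal and Nts spots none of 225, 242 and 236. Without cluster replicate 1 the rises of Cck, Npy and Gal were 7.06, 5.63 and 1.16, and all passed. The part of this region in the Tac1, Penk and CGRP-form Calca values was not tested.

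**Figure D3:**
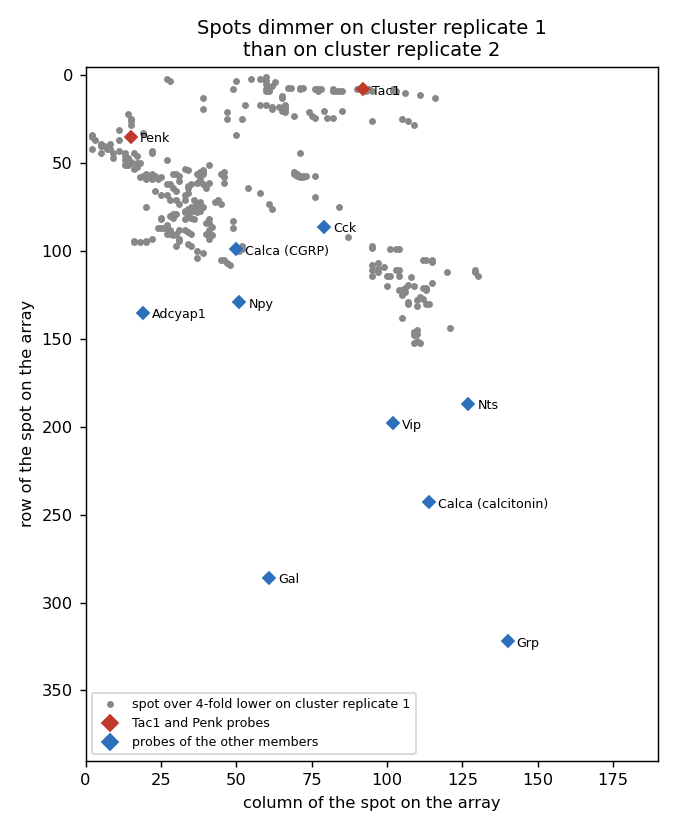
The array of cluster replicate 1 is drawn by row and column, with grey points for the 307 spots over 4-fold dimmer there than on cluster replicate 2 and diamonds for member probes. Grey points form patches in the first 128 rows, where the red diamonds of Tac1 and Penk lie, and none surrounds the Npy, Gal, Nts, Vip or Grp diamonds.

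Nts encodes neurotensin, a peptide of gut endocrine cells and the brain. It read -2.70 and -2.98 in clusters and -3.21 and -4.93 in islets, the last being the only value not detected. Clusters lay above both islet arrays, but the nearer islet value was within 0.23 of a cluster value. The difference of 1.23 ± 0.61 (log2, SE) had a 95% interval from -0.43 to 2.88 and limma adjusted p = 0.153. Without islet replicate 2 it was 0.36 (limma adjusted p = 0.188). Without islet replicate 1 the islet value left is the undetected one, which is taken to vary like the clusters: the fit gave 2.09 (limma adjusted p = 0.000885), and the bound was 1.89.

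Calca yields calcitonin or, by alternative splicing in neurons, CGRP, a vasodilator of sensory nerves. Its 2 probes read different transcript variants. The probe for transcript variant 1, the calcitonin form (mm9 chr7:121776948-121777007), read -7.02 and -5.65 in clusters, both not detected, and -4.27 and -3.60 in islets, both detected. The islet values were the higher ones on every array. Against the lowest detectable signal of the cluster arrays, clusters were at least 2.10-fold lower, or 1.67-fold and 2.66-fold from islet replicate 1 or 2 alone. The limma adjusted p was 0.021, but the probe entered the test only through the islets, and the fitted difference of -2.40 rests on undetected cluster signals. With normexp it was -0.60. The probe for variant 2, the CGRP form (chr7:121775204-121775263), was not detected on any array, at -7.05 and -5.39 in clusters and -7.45 and -6.96 in islets.

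Vip, Adcyap1 and Grp were near background. Vip encodes vasoactive intestinal peptide, a parasympathetic transmitter, and read -7.16 and -7.51 in clusters and -3.60 and -7.02 in islets, detected only on islet replicate 1. Adcyap1 encodes the neuropeptide PACAP and read -5.60 and -5.70 in clusters and -4.33 and -5.89 in islets, again detected only on islet replicate 1. Grp, gastrin-releasing peptide, was detected on none of the arrays, at -7.16 and -7.46 in clusters and -7.41 and -5.81 in islets. With no filter on dim probes the differences were -2.02 for Vip (95% interval -5.42 to 1.37), -0.55 for Adcyap1 (-2.13 to 1.04) and -0.70 for Grp (-2.35 to 0.95). None passed in limma, with adjusted p = 0.285, 0.534 and 0.440. These intervals are wide, and the signals lay near the limit of detection, so a difference of several fold was not resolvable.

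Vip, Nts and Adcyap1 were thus detected on islet replicate 1 and not on replicate 2. Against the lowest detectable signal of replicate 2, replicate 1 was brighter by at least 2.19-fold for Vip, 2.89-fold for Nts and 1.32-fold for Adcyap1. The 10 endocrine marker genes, hormones and granule proteins among them, had a summed level of 150.1 on islet replicate 1 and 25.9 on replicate 2 (in units of the 75th percentile), and all 10 against 8 were detected. The calcitonin-form probe of Calca was detected on both, with replicate 1 minus replicate 2 at -0.67. The part of endocrine RNA content in these differences was not tested.

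Markers of nerve cells gave no single direction. Of 16 neuronal genes 11 were tested, 4 being higher and 5 lower in clusters, or 2 and 4 without cluster replicate 1 or 2. On all arrays 81.8% of those tested passed, against 57.5% of all genes. Nefm, a neurofilament chain, was higher by at least 3.44-fold and the neuronal hydrolase Uchl1 by at least 7.37-fold, while Nefl, another neurofilament chain, was lower by at least 1.62-fold. The neuron-defining genes Elavl3 and Dbh were not detected on any array, and Stmn2 and Syt1 only on islet replicate 1. The summed level of the neuronal list was 20.1 to 20.3 in clusters and 15.4 to 16.8 in islets, most of it from the synaptic gene Snap25, which did not pass (0.42, limma adjusted p = 0.0594). Without Snap25 the sums were 2.48 to 2.66 and 2.92. Of 9 Schwann cell genes 8 were tested, 2 higher and 4 lower (2 and 2 without cluster replicate 1 or 2), with a summed level of 7.57 to 8.44 in clusters and 16.1 to 19.4 in islets. The myelin gene Mbp gave most of the islet sum, and without it the order turned, to 7.49 to 8.36 in clusters and 1.55 to 1.62 in islets. Schwann cell genes passed in 75% of those tested, against 57.5% of all genes. Foxd3 was not detected on any array.

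Mesenchymal, acinar, endocrine and endothelial markers differed strongly between groups. All 12 mesenchymal markers were higher in clusters (summed level 1087 to 1209 against 35.9 to 42.9), and all 10 acinar markers lower (1.037 to 1.103 against 3756 to 5889). The 8 endocrine genes tested were lower (summed level of the 10 on the array 0.51 to 0.72 against 25.9 to 150.1), as were all 8 endothelial genes (2.65 to 2.99 against 18.2 to 19.5). Of 8 macrophage genes 4 were lower and 1, Tyrobp, higher (20.9 to 22.6 against 120.3 to 146.2). Together 62.5% passed, against 57.5% of all genes. Cd14 gave most of the macrophage sum, and without it the sums were 4.18 to 4.66 and 12.5 to 27.1. The part of cell composition in these results was not tested.

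Receptor genes changed in both directions. Of 28 listed 17 were tested, 3 being higher and 7 lower (median -0.67). Together 58.8% of those tested passed, near the 57.5% of all genes tested. The median was -0.31 without islet replicate 2, -1.15 with the mean of the probes of a gene, -0.38 with normexp, and -0.43 with genes undetected in 1 group at their bound. The neuropeptide Y receptor Npy1r read 2.27 and 2.20 in clusters and -4.80 and -6.90 in islets, where only replicate 1 was detected. Its rise of 8.08 ± 0.73 (log2, SE; limma adjusted p = 0.0016) ran from 4.57 to 9.13 over the alternatives. Npy1r entered the test only through the clusters, and its fitted rise rests in part on the undetected islet value. Both cluster values of Npy1r lay above both islet values, as those of Npy did. Npy5r, another receptor of this peptide, was detected on cluster replicate 2 only.

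The receptors of CCK did not follow the ligand. Cckar, the receptor through which CCK acts on the exocrine pancreas, read 3.78 and 3.47 in islets and was not detected in clusters (-7.16 and -7.45). It was lower by at least 399-fold, with limma adjusted p = 9.13e-05. Cckar entered the test only through the islets, and that p-value rests on undetected cluster signals. Cckbr, the gastrin receptor, differed by -0.69 ± 0.32 (log2, SE; limma adjusted p = 0.131). It passed as lower with normexp, the mean of its probes and a floor for dim values. Over the alternatives its difference ran from -1.28 to -0.31. Cckar is commonly counted among acinar genes, and all 10 acinar markers were lower in clusters (summed level 1.037 to 1.103 against 3756 to 5889). The part of acinar RNA content in the Cckar difference was not tested.

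Vipr1, a shared receptor of VIP and PACAP, fell by 6.18 ± 0.20 (log2, SE; limma adjusted p = 0.000134), from 3.05 and 3.49 in islets to -2.90 and -2.93 in clusters. Vipr2 fell by 1.55 and the galanin receptor Galr3 by 2.63. Galr1 and Galr2 were not detected on any array. The PACAP receptor Adcyap1r1 differed by 0.40 (95% interval -0.07 to 0.86, limma adjusted p = 0.112). It passed with scaling to the array median and with quantile normalization. Over the alternatives its difference ran from -0.11 to 0.65. Among opioid receptors, which bind the enkephalins, Oprd1 and Oprk1 were not detected on any array and Oprm1 differed by 0.14 (-0.24 to 0.52).

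Calcrl, the receptor chain for CGRP and adrenomedullin, rose by 3.09 ± 0.66 (log2, SE; limma adjusted p = 0.0183) and its partner Ramp3, which makes an adrenomedullin receptor, by 4.99 ± 0.18 (adjusted p = 0.000176). In islets Calcrl read -5.17, near the lowest detected signal of that array (-5.26), and -7.05, which was not detected. It thus entered the test only through the clusters. Its rise ran from 0.54 to 4.03 over the alternatives, and it lost its call without either cluster array. Ramp2 fell by 1.26, and Ramp1, the partner for CGRP, did not pass by its brightest probe (-0.43, limma adjusted p = 0.103). With the mean of its 3 probes Ramp1 passed as lower, and its difference ran from -3.15 to -0.20 over the alternatives. The GRP receptor Grpr was not detected in clusters and was lower there by at least 1.67-fold (limma adjusted p = 0.00843). Grpr entered the test only through the islets, and it did not pass with normexp. The tachykinin receptors Tacr1 and Tacr3 were not detected on any array, and Tacr2 differed by -0.10 (-0.61 to 0.40).

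**Figure D4:**
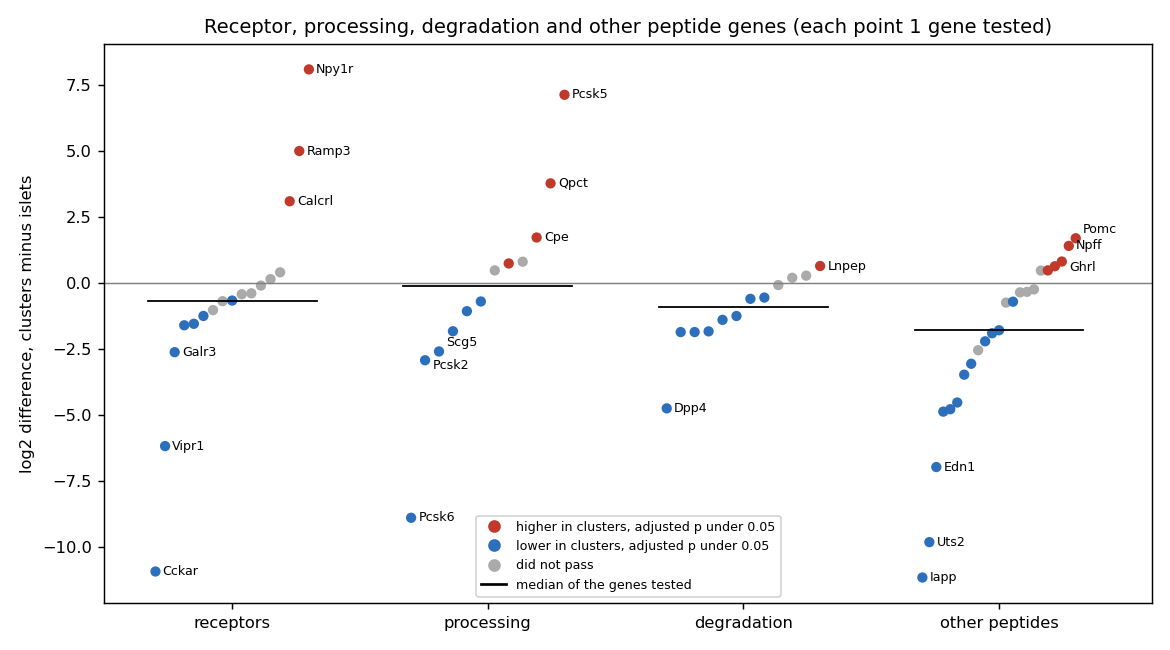
Each point is the log2 difference, clusters minus islets, of 1 gene tested, red where higher and blue where lower at adjusted p under 0.05 and grey otherwise, with a black line at the median of each list. Npy1r, Ramp3 and Pcsk5 stand at the top and Cckar, Pcsk6, Uts2 and Iapp at the bottom.

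All 12 genes of precursor processing were tested, 4 rising and 6 falling (median -0.12). Together 83.3% passed, against 57.5% of all genes. The neuroendocrine convertase Pcsk2, which cuts precursors in dense-core granules, fell by 2.93 ± 0.59 (log2, SE; limma adjusted p = 0.0154), and its chaperone Scg5 by 2.60. Pcsk1, its companion convertase, did not pass (0.80, adjusted p = 0.104). Pcsk5, a widely expressed convertase, rose by 7.12 ± 0.14 (adjusted p = 9.13e-05), and Pcsk6 was lower by at least 145-fold. Qpct, which forms the N-terminal pyroglutamate of neurotensin, rose by 3.77, and the carboxypeptidase Cpe by 1.72 (adjusted p = 0.024). Cpe did not pass without either cluster array. Pam, the amidating enzyme, did not pass (0.47, adjusted p = 0.0521). Without cluster replicate 1 or 2 the counts were 2 rising and 5 falling. The median turned positive with scaling to the array median (0.12), quantile normalization (0.10), the mean of probes (0.09) and probes detected on all arrays (0.47).

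Of 12 peptidases that break peptides down, 8 were lower and 1 higher (median -0.93). Together 75% passed, against 57.5% of all genes. Dpp4, which trims neuropeptide Y, was lower by at least 5.47-fold. Nln, which cleaves neurotensin, fell by 1.87 (log2), or 3.64-fold. Mme, the enkephalin-degrading neprilysin, differed by -0.085 (95% interval -1.22 to 1.05, adjusted p = 0.874), and its sign turned in 4 of 16 alternatives. Without cluster replicate 1 or 2, limma called 6 lower, and the 1 that was higher no longer passed.

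Of 33 other peptide genes 23 were tested, 12 lower and 5 higher (median -1.80). Together 73.9% of those tested passed, against 57.5% of all genes. The median was -1.06 without cluster replicate 1 and -0.71 with normexp. The bound was at least 478-fold lower for Iapp, the islet amyloid polypeptide, at least 260-fold for urotensin 2 (Uts2) and at least 39.4-fold for endothelin 1 (Edn1). Pomc, the melanocortin precursor, rose by 1.69 and Npff by 1.40 (both log2). Without cluster replicate 1 or 2 the counts were 11 lower and 2 higher, and without islet replicate 1 they were 15 and 3.

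The profile of Cck over the 4 arrays was compared with those of 24595 other genes, each centred on its own mean. Among the smallest Euclidean distances were those of Lrp1 (0.14), an endocytic receptor, and Pcsk5 (0.16). Their differences were 6.97 and 7.12 against 7.08 for Cck. With 4 arrays in 2 groups this ranks mainly by the size of the group difference.

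RefSeq start-site windows (GRCm38.p6) were held for 8 of the 10 members, and the 250 bases before the start were searched on both strands. The cAMP response element TGACGTCA was in none of them and in 1.55% of 32851 windows. The AP-1 motif TGANTCA was in that of Nts (6.75% of windows), and the E-box CANNTG in those of Cck, Tac1, Nts and Calca (66.2%). A related 7-base element, TGCGTCA, was searched after the sequences had been seen. It was in the windows of Cck, Tac1 and Calca and in 1.75% of all windows. These windows are shown, since 1 of the genes rose, 1 fell and Tac1 did not pass, with the element in capitals (read on the opposite strand in Calca).
Cck chr9:121495695-121495944, minus strand: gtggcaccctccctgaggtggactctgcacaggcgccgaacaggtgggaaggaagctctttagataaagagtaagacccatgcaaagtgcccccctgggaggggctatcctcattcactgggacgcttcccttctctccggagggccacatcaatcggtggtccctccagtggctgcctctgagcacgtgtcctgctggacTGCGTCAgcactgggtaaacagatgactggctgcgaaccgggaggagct
Tac1 chr6:7554811-7555060, plus strand: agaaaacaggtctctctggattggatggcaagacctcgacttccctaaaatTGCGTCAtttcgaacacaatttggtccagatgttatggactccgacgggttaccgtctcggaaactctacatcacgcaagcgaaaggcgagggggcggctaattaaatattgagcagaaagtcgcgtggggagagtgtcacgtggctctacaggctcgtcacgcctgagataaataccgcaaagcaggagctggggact
Calca chr7:114636358-114636607, minus strand: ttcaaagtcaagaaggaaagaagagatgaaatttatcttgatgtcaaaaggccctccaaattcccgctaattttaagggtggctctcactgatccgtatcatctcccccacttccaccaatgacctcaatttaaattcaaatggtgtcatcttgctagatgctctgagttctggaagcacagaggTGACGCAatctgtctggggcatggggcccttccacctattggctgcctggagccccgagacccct
The element began 49, 199 and 65 bases before the start in Cck, Tac1 and Calca. A match is a description of the letters and was not tied to the differences between groups.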

How the data were processed

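RNA of 4 samples (2 per group) was labelled with Cy3 and hybridised to Agilent mouse arrays. Per the file headers, Feature Extraction 11.5.1.1 made the deposited spot intensity values, which had a spatial trend surface subtracted and were detrended by multiplication, with probe positions on mm9. The authors' deposited table of log2 values served as an alternative. Each array's processed signals were put on the log2 scale and its 75th percentile over non-control spots subtracted. Non-uniform spots were then set aside, the spots of a probe averaged, and 490 of 55681 probes without a value on every array dropped. Probes detected on both arrays of a group were kept (34974), and each gene was represented by its brightest probe on average (24596 genes). The test was limma 3.58.1, run under R 4.3.3 (2-sided, no covariates, 4.27 degrees of freedom in all). The fit was tested on simulated data. "At least" folds set the brighter group against the lowest signal among detected spots of each dim array. Of each gene list up to 3 passing genes per direction were named, with the receptors of the members. Genes that did not pass, or were not detected, were also named after their values were seen. The members and lists were chosen with earlier results of these data known. Some results that the naming rule covers are not reported here.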

Additional observations from a re-analysis of the deposited data

How the results depend on the processing

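The alternatives were normexp, other scalings, other filters, keeping flagged spots, averaging probes, a floor for dim values, a variance trend, the authors' values, a replicate block and leaving out each array. Cck, Npy and Gal passed in all 17, and Calca in the 16 that gave it a value. Penk passed in the alternatives that left it residual spread. Without an islet array it had 1 usable array per group, and the replicate block used up the spread of its 3 usable arrays. Its values in those settings carry no test. The number of members higher was 5 with the 75th percentile taken over probes after flagged spots were left out, an alternative chosen after seeing the data. Tac1 (4.74, adjusted p = 0.0126) and Nts (1.27, adjusted p = 0.0488) passed there, and the fit had 9.06 degrees of freedom. The number lower was 0 with probes detected on all arrays, since Calca then leaves the test. With 1 array left out the members passing numbered 4 to 5, those higher 3 to 4, those lower 1, member probes passing 3 to 5, and all genes passing 9771 to 15107 (4562 to 6790 higher, 5090 to 8317 lower). Scaling to the array median moved the median of all genes by 0.23, to the percentile of detected probes by -0.16, and quantile normalization by 0.11. With these scalings 7943, 5855 and 7088 genes were higher and 5826, 8920 and 6904 lower, against 6670 and 7463. Over genes, the deviations of same-numbered arrays were not correlated (r = -0.02), which cannot show whether those samples shared animals or a batch. With the replicate block 4 members and 11719 genes passed. The number of arrays and the signal over background limit every value.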
